A study of Arabidopsis thaliana with 16 samples.

Results

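Transposase hypersensitive sites (THSs), the stretches of open chromatin found by ATAC-seq, were taken from the 10 chromosome ends of Arabidopsis thaliana. A THS was included where its midpoint lay within 200 kb of either end of 1 of the 5 nuclear chromosomes of TAIR10. The rule used position alone and kept 1610 of 65351 THSs. The end of chromosome 5 held the most, 206, followed by the start of chromosome 1 with 201, the end of chromosome 4 with 187, the start of chromosome 5 with 173, the start of chromosome 3 with 160, the end of chromosome 3 with 155, the end of chromosome 1 with 146, the end of chromosome 2 with 139, the start of chromosome 4 with 125 and the start of chromosome 2 with 118. Start and end follow the numbering of the chromosome.

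Chromosome ends carry the telomere, an array of a short repeated unit, which in Arabidopsis reads TTTAGGG on the strand that runs towards the end. In this plant the genes for the large ribosomal RNA precursor lie in long tandem arrays, the nucleolus organizer regions, at the starts of chromosomes 2 and 4, and the reference assembly holds only a few of their copies. Their activity is tied to the nucleolus and to the demand for ribosomes in growing cells, and many copies are kept silent. Apart from these repeats, the chromosome ends of Arabidopsis are rich in ordinary genes.

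Nuclei were pulled from whole 3-day-old Col-0 seedlings grown in continuous light, by INTACT, in which a biotin-labelled nuclear envelope tag is driven by a cell-state promoter and captured on streptavidin beads. The states were protoderm (Proto, AtML1 promoter, 3 libraries), meristemoid mother cells (MMC, SPCH promoter, 3 libraries), meristemoids (M, MUTE promoter, 4 libraries), guard mother cells (GMC, FAMA promoter, 3 libraries) and guard cells (GC, GC1 promoter, 3 libraries). A state is therefore the set of cells in which its promoter was active. All lines carried 2 transgenes, the tag and a biotin ligase gene (BirA) driven throughout the plant by the ACT2 promoter, and were homozygous for both. Values are scaled cutcounts, the transposition events on a THS divided by 1 size factor per library, and the level of a THS is the mean of its 5 state means. The study calls the libraries of a state biological replicates, and the sources used here do not say how the seedlings were batched.

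Some facts of the libraries bear on what follows. The cutcounts on THSs lay between 3412226 and 13596509 per library. In the promoters of AtML1, SPCH, MUTE, FAMA and GC1 the strongest THS was highest in the line that the promoter drives, in every library of that line. That line also carries the promoter in its tag transgene, so reads from the transgene could add to this value. The share of a library's scaled cutcounts on the 1% of THSs with the highest levels lay between 14.3% and 25.7%, except in MMC replicate 3 (11.2%) and M replicate 4 (12.1%). It was 21.6% to 22.4% for GMC and 20.2% to 25.3% for GC. The MMC and M libraries thus spread more widely on this measure than the GMC and GC libraries, and the counts and medians that compare them are also given without MMC replicate 3 and M replicate 4, a setting chosen after the data were seen.

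The sequences at the outermost positions differ in kind. The last 200 bases of chromosome 2 lie in THS_28150 and are telomere repeat throughout, whereas the outermost THSs of chromosome 5 share a stretch with each other. They are shown on the plus strand of TAIR10, from the RefSeq copy of that genome. Capitals mark the unit TTTAGGG in THS_28150, and in the pair from chromosome 5 the longest run that both share, which the chromosome 5 end carries on the opposite strand.
THS_28150, chr2:19698090-19698289: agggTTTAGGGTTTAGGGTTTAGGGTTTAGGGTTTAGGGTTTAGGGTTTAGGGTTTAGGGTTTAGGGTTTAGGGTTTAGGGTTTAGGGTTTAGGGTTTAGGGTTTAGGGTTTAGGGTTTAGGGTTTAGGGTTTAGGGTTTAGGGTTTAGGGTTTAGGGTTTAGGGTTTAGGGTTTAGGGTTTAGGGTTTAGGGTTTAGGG
THS_50137, chr5:62-231: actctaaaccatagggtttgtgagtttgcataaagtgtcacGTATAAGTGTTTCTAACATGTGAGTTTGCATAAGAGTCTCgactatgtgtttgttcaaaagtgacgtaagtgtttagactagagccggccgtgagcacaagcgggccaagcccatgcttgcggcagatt
THS_65351, chr5:26975237-26975436: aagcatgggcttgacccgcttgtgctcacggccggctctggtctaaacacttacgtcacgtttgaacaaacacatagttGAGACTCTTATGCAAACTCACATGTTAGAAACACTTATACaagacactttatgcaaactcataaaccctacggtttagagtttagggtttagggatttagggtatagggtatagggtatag
Along the 170 bp of THS_50137, 161 bases were identical to the reverse complement of THS_65351 in an alignment without gaps, and the longest unbroken run was 40 bp. Thus the start and the end of chromosome 5 carry near copies of the same sequence, pointing in opposite directions. Among the 45 pairs of outermost THSs, the next longest exact runs were 32 bp, between THS_28150 and THS_65351, and 24 bp, between THS_28150 and THS_50136. THS_28150 holds the telomere unit 81 times, against 5 times in THS_50136 at the end of chromosome 4, 3 times in THS_65351 and once in THS_28151 at the start of chromosome 3. The other 6 outermost THSs hold no unit, and the first 1000 bases of chromosomes 2 and 4 are unknown in the assembly.

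A further set is shown because the strongest THSs of the ends come from it. So do those with the largest log2 fold changes, in the fit of all libraries, among the THSs whose MMC and M libraries do not overlap the GMC and GC libraries. THS_17805 spans the start of the 18S ribosomal RNA gene AT2G01010, whose annotated bases are in capitals. THS_17814 and THS_17815 lie between annotated genes on the same chromosome arm, and capitals mark the 84 bp that both contain.
THS_17805, chr2:3606-3805: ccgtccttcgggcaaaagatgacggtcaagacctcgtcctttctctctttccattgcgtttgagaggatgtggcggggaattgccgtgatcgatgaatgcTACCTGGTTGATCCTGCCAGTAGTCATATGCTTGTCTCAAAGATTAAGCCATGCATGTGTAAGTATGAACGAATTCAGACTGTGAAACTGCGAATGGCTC
THS_17814, chr2:16748-16904: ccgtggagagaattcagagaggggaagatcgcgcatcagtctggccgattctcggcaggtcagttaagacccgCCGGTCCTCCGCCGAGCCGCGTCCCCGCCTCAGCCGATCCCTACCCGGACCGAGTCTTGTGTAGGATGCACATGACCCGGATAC
THS_17815, chr2:23181-23350: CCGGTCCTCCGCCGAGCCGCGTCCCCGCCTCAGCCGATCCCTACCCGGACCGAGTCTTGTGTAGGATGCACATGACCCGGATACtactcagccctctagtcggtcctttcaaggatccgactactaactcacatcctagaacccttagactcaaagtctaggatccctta
The central 50 bases of THS_17814 occur 12 times in the genome, 9 of them on chromosome 2, and those of THS_17815 occur 7 times, 6 of them on chromosome 2. Reads from the copies of each THS could have been placed at that THS, and how reads with several positions were handled is not given in the sources used here.

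The 10 ends were denser in THSs than the chromosomes as a whole. They held 80.5 THSs per 100 kb, against 54.8 over the 5 chromosomes, with a range from 59 at the start of chromosome 2 to 103 at the end of chromosome 5. The value for whole chromosomes includes the centromeres, where reads were left out. The stretches from 200 to 500 kb held 2140 THSs, and their density was not set against that of the ends. The THSs there were of ordinary size and slightly lower. Their median length was 230 bp, as over all THSs, and their median level was 47.96 scaled cutcounts against 53.9 over all THSs. The median level per end ran from 37.4 at the start of chromosome 3 to 79.8 at the start of chromosome 2. By annotation, 29.9% of the 1610 THSs were intergenic (33.9% of all THSs), 26.9% lay within 400 bp upstream of a gene start (25.5%), 18.6% in coding exons (15.3%), 15.8% in untranslated exons (16.4%), 6.09% in introns (6.22%), and the rest in genes for non-coding RNA, in ribosomal RNA genes or in pseudogenes. The Wilson 95% confidence interval for the coding share, 16.7% to 20.5%, did not include the share over all THSs. All 4 THSs of the table that were assigned to ribosomal RNA genes lay at the start of chromosome 2. Words were searched on both strands. The telobox was searched as AAACCCTA and the telomere unit as TTTAGGG. The GA repeat was searched as GAGAGAGA and the E-box as CACGTG. In this order they occurred in 3.73%, 3.73%, 8.26% and 9.88% of the 1610 THSs, and in 3.38%, 3.67%, 7.55% and 8.91% of all THSs, so the plain telomere unit was about as common near the ends as elsewhere.

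The ribosomal DNA block dominated the signal. Between 982 and 10336 bp of chromosome 2, 12 THSs (THS_17802 to THS_17813) cover the 18S and 5.8S ribosomal RNA genes and their neighbours over 7558 bp in all, and 11 of them were among the 20 highest THSs of the table. Their levels lay between 7304 and 65957 scaled cutcounts, whereas the highest end THS outside this block and the telomere repeat, THS_65206, had a level of 661. In each of the 12, between 69.7% and 100% of the 35-base words occur more than once in the genome, so the values can include reads from other copies. The number of cutcounts per copy is therefore not known. In pooled nuclei, more open copies per nucleus and more nuclei with open copies cannot be told apart. Each state also came from its own transgenic line, so state and line cannot be told apart, and the number of copies per nucleus was not measured.

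The 12 THSs together took 2.48%, 2.27% and 2.48% of the scaled cutcounts of the Proto libraries, 3.77%, 5.65% and 1.10% for MMC, and 6.47%, 3.35%, 3.55% and 1.505% for M. They took 7.01%, 7.02% and 6.88% for GMC and 6.45%, 6.28% and 5.12% for GC. The 3 GMC libraries stood above the other 13. The means were 2.41% ± 0.123 (SD, n = 3) for Proto, 3.51% ± 2.28 (n = 3) for MMC, 3.72% ± 2.05 (n = 4) for M, 5.95% ± 0.726 (n = 3) for GC and 6.97% ± 0.0812 (n = 3) for GMC. In this order Proto, MMC and M overlapped, MMC replicate 2 lay in the GC range and M replicate 1 just above it, and GMC overlapped none. The share in GMC was 2.89 times and in GC 2.47 times that in Proto. Within MMC and M the share moved with the concentration of signal: MMC replicate 3 and M replicate 4, the lowest on the top 1% of THSs, were also the lowest here, and the part of this in the difference was not tested. The top 1% includes the 12 THSs themselves, so both measures contain the same cutcounts and are bound to move together in part. The end THSs outside the block and the telomere repeat took 1.75% ± 0.102 (SD) for Proto, 1.85% ± 0.0827 for MMC and 1.79% ± 0.11 for M, then 1.91% ± 0.0151 for GMC and 1.81% ± 0.0503 for GC, and the GMC libraries lay above those of M and GC, while the other neighbouring states overlapped.

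**Figure D1:**
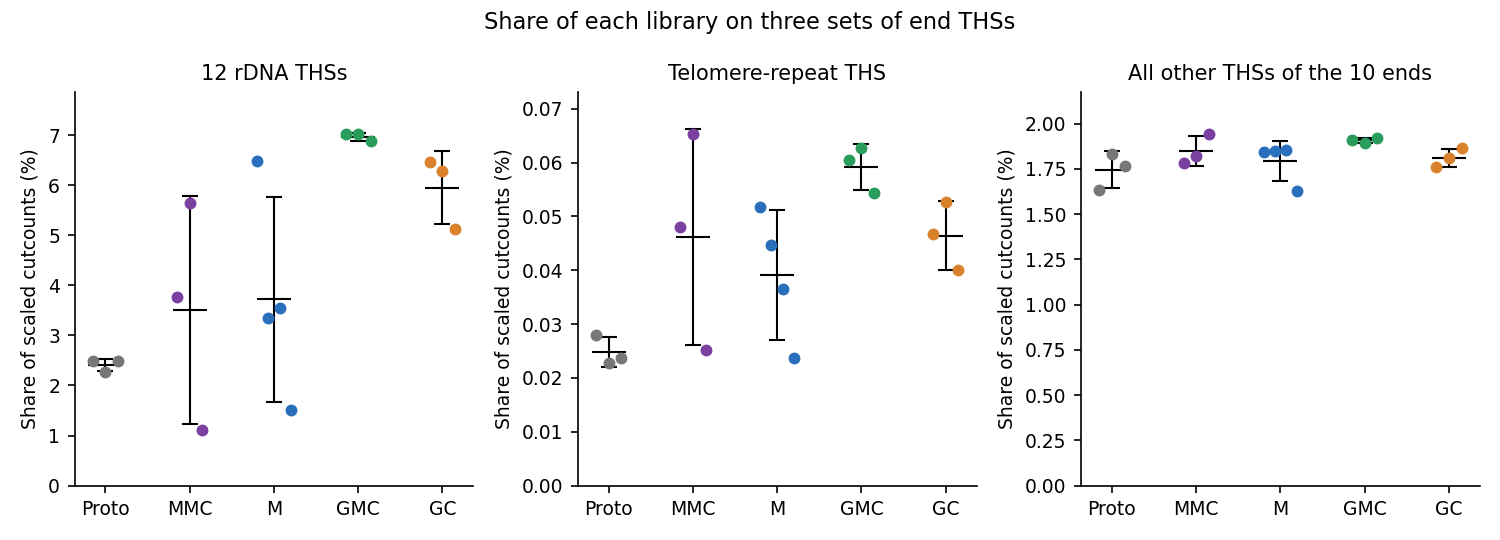
Share of each library's scaled cutcounts (%, from 0) on the 12 ribosomal DNA THSs, on the telomere-repeat THS_28150 and on the other THSs of the 10 ends, by state. Points are libraries and bars the mean ± SD; the 3 GMC libraries are above all others in the left panel, while the right panel stays between 1.63% and 1.94%.

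The highest of the 12, THS_17809 (chr2:5662-7037), overlaps the 5.8S ribosomal RNA gene. It had 32530, 31585 and 37821 scaled cutcounts in Proto, 51494, 85432 and 17380 for MMC and 86090, 54014, 53824 and 24879 for M, then 100000, 104045 and 99971 for GMC and 100814, 92157 and 72018 for GC. Every GMC and GC library exceeded every Proto library, and MMC replicate 2 and M replicate 1 reached into the GC range. The log2 fold change of MMC and M over GMC and GC was -1.03 ± 0.40 (SE), limma adjusted p = 0.049, from limma over all 65351 THSs with Benjamini-Hochberg adjustment. THS_17808 (chr2:5131-5565), at the 3′ part of the 18S gene, had the largest difference of the 12. It had 11699, 12249 and 13424 for Proto, 16631, 27590 and 5266 for MMC and 28722, 16768, 16690 and 7989 for M, then 34280, 33622 and 33688 for GMC and 33914, 29607 and 25105 for GC, with a log2 fold change of -1.11 ± 0.36 (SE), limma adjusted p = 0.023. Here too the GMC libraries were close together and the MMC libraries far apart. All 12 had negative log2 fold changes, from -1.11 to -0.64, and 9 passed an adjusted p of 0.05, against 16.7% of all THSs called in this direction. None of the 12 passed the test of any difference between the 5 states (adjusted p from 0.096 to 0.24). The calls depend on single libraries. Of the 12, 12 passed without MMC replicate 2 and 11 without M replicate 1, against 21.0% and 23.4% of all THSs in this direction. Between 0 and 6 passed without any other library, against 8.91% to 16.6%. The count was 0 without MMC replicate 3 or GC replicate 1, against 8.91% and 10.1%. It was also 0 without both MMC replicate 3 and M replicate 4, against 5.98%. The calls depend on the processing too, and the share of all THSs in this direction is given in brackets. Of the 12, 2 passed under cyclic loess (8.76%) or from the 4 states compared alone (13.8%) and 5 with a pseudocount of 5 (17.3%). With the share on the top 1% of THSs or the fraction of reads in peaks as a covariate 0 passed (0.00612% and 0.00459%). The share on the top 1% contains the cutcounts of these 12 THSs, so that covariate is not independent of them. With both covariates THS_17803 had a positive log2 fold change.

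The telomere repeat of chromosome 2 was strong in every state. THS_28150 (chr2:19697182-19698289) runs to the last base of chromosome 2. The outer 2000 bp of the other 9 ends hold between 0 and 10 units, so reads from their telomeres could have been placed here, and 43.3% of its 35-base words occur more than once. It had 1649, 1457 and 1570 scaled cutcounts in Proto, 3084, 4405 and 1821 for MMC and 3267, 3184, 2546 and 1779 for M, then 3736, 3908 and 3309 for GMC and 3158, 3379 and 2593 for GC. The 3 Proto libraries were below all others, and MMC overlapped the other 3 states, while GMC lay just above M. Its log2 fold change of MMC and M over GMC and GC, -0.26 ± 0.24 (SE), limma adjusted p = 0.38, was within the spread of the libraries. For MMC over Proto the log2 fold change was 0.90 ± 0.35 (SE), limma adjusted p = 0.68. The other outermost THSs with telomere units were far lower. THS_50136 (chr4:18584762-18585056) had 78.4, 87.4 and 103 for Proto, 121, 187 and 93.4 for MMC and 122, 161, 125 and 97.7 for M, then 176, 143 and 120.2 for GMC and 108, 194 and 126 for GC, and its log2 fold change was -0.16 ± 0.18 (SE), limma adjusted p = 0.50.

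The near copies at both ends of chromosome 5 moved alike. THS_50137 (chr5:62-231), in a non-coding RNA gene, had 32.6, 52.9 and 50.1 scaled cutcounts in Proto, 48.5, 41.3 and 28.01 for MMC and 32.6, 35.2, 26.6 and 30.4 for M, then 48.01, 64.03 and 58.1 for GMC and 53.4, 47.95 and 73.6 for GC. THS_65351 (chr5:26975222-26975451), intergenic, had 45.8, 68.96 and 63.8, 50.3, 69.9 and 24.9, 52.8, 44.6, 34.7 and 31.5, 107, 69.8 and 64.2 and 79.6, 63.2 and 88.97 in the same order of states. Both were lowest in M, and in both MMC replicate 3 was the lowest MMC library. Of the MMC and M libraries, MMC replicate 1 in THS_50137 and MMC replicate 2 in THS_65351 reached the range of the GMC and GC libraries, as Proto replicates 2 and 3 did in both. The log2 fold changes were -0.70 ± 0.19 (SE), limma adjusted p = 0.011, and -0.86 ± 0.21 (SE), limma adjusted p = 0.0075. Only 4.41% and 3.06% of their 35-base words occur more than once, so most reads could be placed at 1 of the pair.

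The comparison that follows set MMC and M, the earlier states of the lineage, against GMC and GC, the later ones. With a Benjamini-Hochberg adjusted p under 0.05 from limma, 141 of the 1610 THSs (8.76%) favoured MMC and M, whereas 347 (21.6%) favoured GMC and GC. Over all THSs these shares were 16.6% and 16.7%. At the ends calls were thus tilted towards GMC and GC, whereas in the whole table they were even. With libraries scaled to equal totals, which moved the median log2 fold change of all THSs from -0.02 to -0.13, the end calls were 92 and 425, against 11.8% and 20.4% of all THSs. The median log2 fold change was -0.18 at the ends and -0.02 over all THSs. Complete separation of the libraries was rare. In 12 (0.745%) every MMC and M library was above every GMC and GC library, against 0.978% of all THSs, and in 33 (2.05%) every one was below, against 2.04%. Without MMC replicate 3 and M replicate 4 the counts were 26 higher in MMC and M and 125 higher in GMC and GC, against 4.16% and 5.98% of all THSs. With the share on the top 1% of THSs as a covariate, 0 of the 1610 were called in either direction, against 0.0107% and 0.00612% of all THSs. With the fraction of reads in peaks that the authors list as a covariate, 0 were called in either direction, against 0.0107% and 0.00459%. With cyclic loess scaling the counts were 57 and 173, against 7.25% and 8.76%. Single libraries moved the counts, and the shares over all THSs moved with them. The count higher in MMC and M was 241 (14.97%, against 24.96%) without M replicate 1, 42 (2.61%, against 7.27%) without MMC replicate 3 and 93 (5.78%, against 10.6%) without M replicate 4, the second share being that of all THSs. It was 58 (3.602%, against 8.41%) and 87 (5.404%, against 11.3%) without GMC replicates 1 and 3, and 76 (4.72%, against 9.87%) and 66 (4.099%, against 9.61%) without GC replicates 1 and 2. The count higher in GMC and GC was 185 (11.5%, against 8.91%) without MMC replicate 3, 220 (13.7%, against 10.9%) without M replicate 4, 188 (11.7%, against 9.17%) without GMC replicate 1, and 198 (12.3%, against 10.1%) and 231 (14.3%, against 11.1%) without GC replicates 1 and 2.

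The balance changed with distance from the end. Within 10 kb, 1 of 113 THSs (0.885%) was higher in MMC and M, whereas 47 (41.6%) were higher in GMC and GC, and the median log2 fold change was -0.55. From 10 to 50 kb, 6.60% and 23.3% of 288 were called in these directions, with a median of -0.24. From 50 to 100 kb the shares were 8.05% and 21.7% of 410 and the median -0.20, and from 100 to 150 kb they were 11.2% and 19.5% of 394 and the median -0.17. From 150 to 200 kb they were 10.9% and 16.5% of 405 and the median -0.04. In the 2140 THSs between 200 and 500 kb, outside the limit, they were 14.7% and 15.8% with a median of -0.03, close to the values over all THSs. The tilt towards GMC and GC was greatest in the outermost 10 kb and small beyond 150 kb. Its size depended on the covariates. With the share on the top 1% of THSs as a covariate the medians, from the outermost bin inwards, were -0.15, -0.048, -0.026, -0.017 and 0.0052, and with the fraction of reads in peaks they were -0.14, -0.074, -0.067, -0.026 and -0.010. The median level did not follow this order, with 46.1 scaled cutcounts within 10 kb and between 46.3 and 49.6 in the other bins. The distance bins were chosen after the data were seen, and a THS is not an independent replicate of its neighbours.

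**Figure D2:**
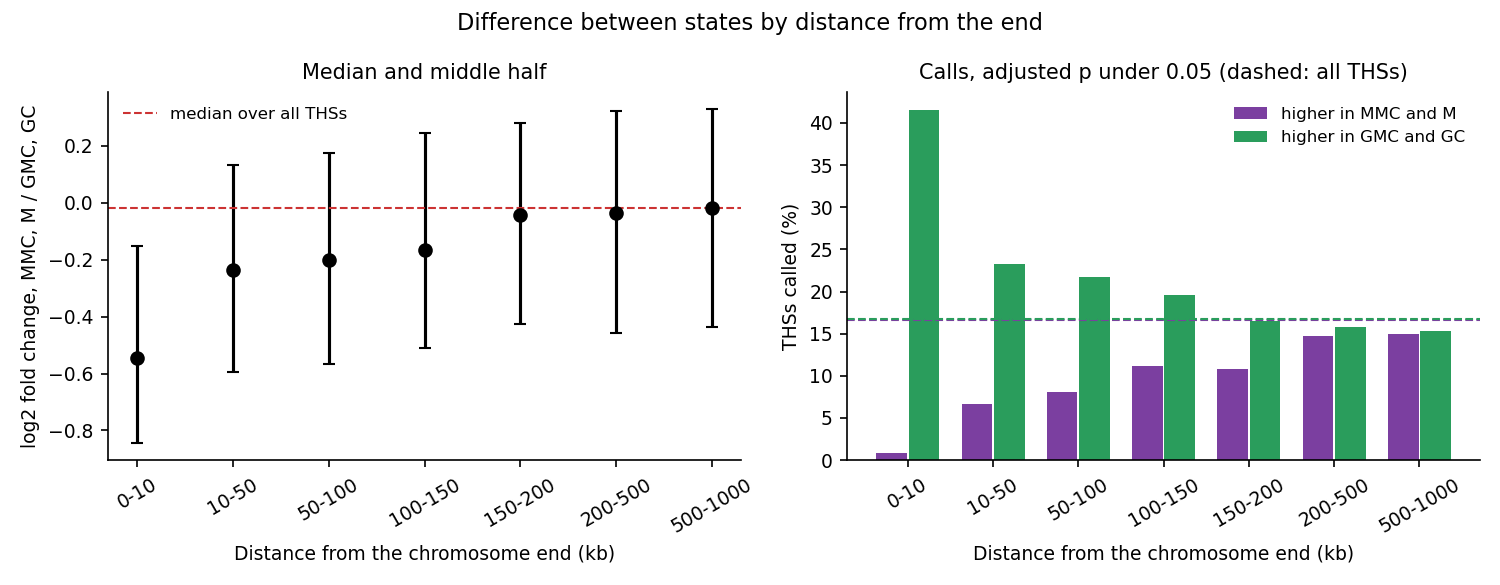
Left, median (points) and interquartile range (bars) of the log2 fold change of MMC and M over GMC and GC by distance from the chromosome end in kb. Right, share of THSs called in each direction; dashed lines give the shares over all THSs. The median rises from -0.55 within 10 kb to -0.04 at 150 to 200 kb, and the share higher in GMC and GC falls from 41.6% to 16.5%.

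The kind of sequence also changed with distance. Coding exons made up 28.3% of the THSs within 10 kb and 16.05% of those at 150 to 200 kb, and the median GC content was 40.95% and 36.1%. Within classes, the THSs in coding exons had medians of -0.71 within 10 kb (n = 32), -0.65 at 100 to 150 kb (n = 67) and -0.56 at 150 to 200 kb (n = 65), near the -0.60 of all THSs in coding exons. The change was larger outside coding sequence. Upstream THSs had medians of -0.23 within 10 kb (n = 26), 0.07 at 10 to 50 kb (n = 83) and 0.24 at 150 to 200 kb (n = 101). Intergenic THSs had -0.54 (n = 21), -0.15 (n = 76) and -0.06 (n = 140). The 26 upstream THSs within 10 kb include THS_17804, THS_17809, THS_17810 and THS_17813 of the ribosomal DNA block, with log2 fold changes from -1.03 to -0.98. The upstream median without them was not computed. At levels between 30 and 100 scaled cutcounts the median was -0.56 within 10 kb (n = 60) and -0.10 at 150 to 200 kb (n = 217). Without the start of chromosome 2 the median within 10 kb was -0.45 (n = 101), with 37.6% higher in GMC and GC.

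The libraries behind the innermost and outermost bins were not alike. For each library, the median over THSs of the difference from the THS mean was taken on the log2 scale. Within 10 kb it was -0.20, -0.06 and -0.04 for Proto, -0.05, 0.12 and -0.62 for MMC and 0.25, -0.13, -0.16 and -0.83 for M. It was 0.34, 0.32 and 0.32 for GMC and 0.28, 0.30 and 0.22 for GC. MMC replicate 3 and M replicate 4 were by far the lowest, while M replicate 1 reached the GC range. At 150 to 200 kb the values were -0.16, -0.04 and -0.04 for Proto, -0.01, -0.02 and 0.07 for MMC and 0.10, 0.04, 0.08 and -0.15 for M, then 0.09, 0.07 and 0.08 for GMC and 0.05, 0.02 and 0.06 for GC. The M range there overlapped that of every other state, whereas Proto lay below and GMC above GC. Without MMC replicate 3 and M replicate 4 the median log2 fold change was -0.29 within 10 kb, -0.14 at 10 to 50 kb, -0.11 at 50 to 100 kb, -0.08 at 100 to 150 kb and -0.04 at 150 to 200 kb. The order of the bins was as before and the sizes were smaller in the outer 4 bins.

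**Figure D3:**
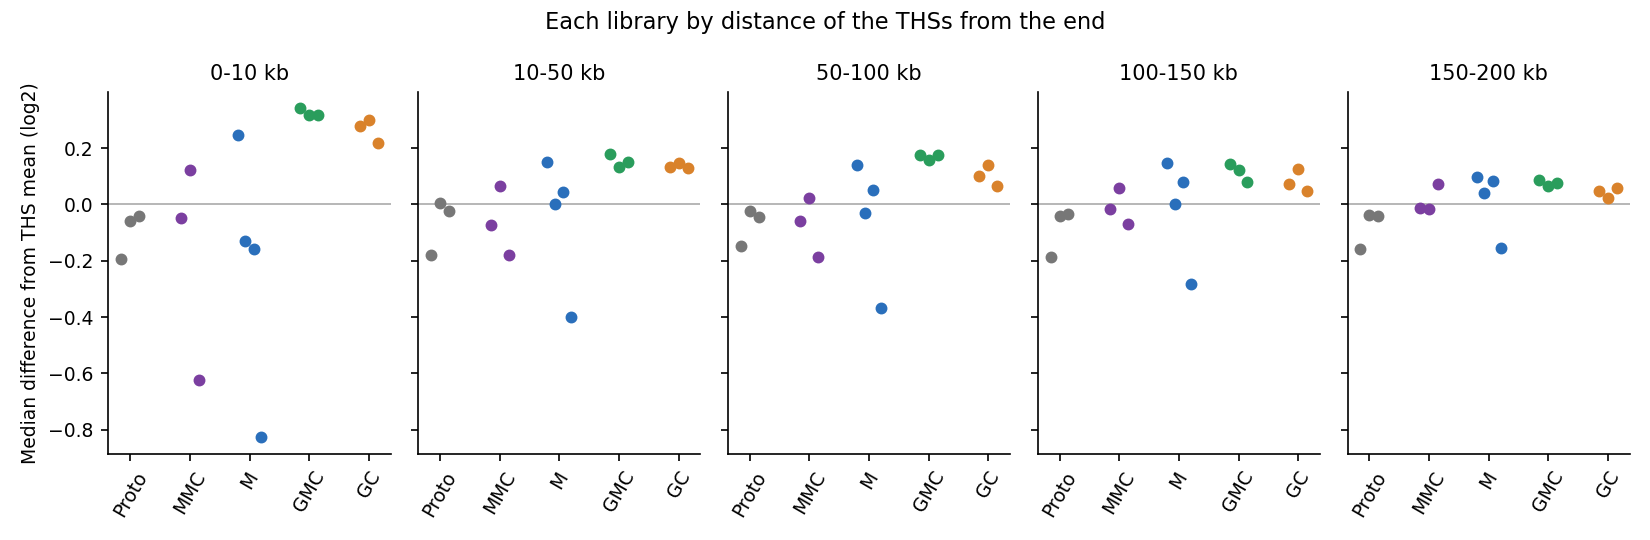
Median difference of each library from the THS mean (log2) for THSs in 5 distance bins, by state. Points are libraries. MMC replicate 3 (-0.62) and M replicate 4 (-0.83) are lowest within 10 kb, where the 6 GMC and GC libraries lie between 0.22 and 0.34.

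The 10 ends shared the direction, with different sizes. The median log2 fold change within 200 kb was negative at every end, from -0.35 at the start of chromosome 3 and -0.31 at the end of chromosome 2 to -0.05 at the start of chromosome 4 and -0.04 at the end of chromosome 3. Over all THSs it was -0.016, with 16.7% called higher in GMC and GC and 16.6% in MMC and M. The share higher in GMC and GC ran from 17.96% at the end of chromosome 5 to 29.5% at the end of chromosome 2. The share higher in MMC and M ran from 4.38% at the start of chromosome 3 to 20% at the start of chromosome 4, which alone had as many calls in either direction, 25 and 25. Without MMC replicate 3 and M replicate 4 the median was negative at 9 ends and 0.0058 at the end of chromosome 3. The share higher in GMC and GC then ran from 3.75% at the start of chromosome 3 to 12.2% at the end of chromosome 2, and the share higher in MMC and M from 0% at the start of chromosome 3 to 5.6% at the start of chromosome 4. Over all THSs these shares were 5.98% and 4.16% in this setting, with a median of -0.012. The starts of chromosomes 1 and 3 and the ends of chromosomes 4 and 5 did not exceed the 5.98%. Within 10 kb the median was negative at all 10 ends. It was lowest, -0.96, over the 12 ribosomal DNA THSs at the start of chromosome 2. It was -0.80 over 2 THSs at the start of chromosome 4, -0.65 over 8 at the end of chromosome 3, -0.62 over 7 at the end of chromosome 2, -0.59 over 17 at the start of chromosome 5 and -0.57 over 13 at the start of chromosome 1. It was -0.48 over 18 at the end of chromosome 5, -0.44 over 10 at the start of chromosome 3, -0.39 over 15 at the end of chromosome 1 and -0.16 over 11 at the end of chromosome 4.

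**Figure D4:**
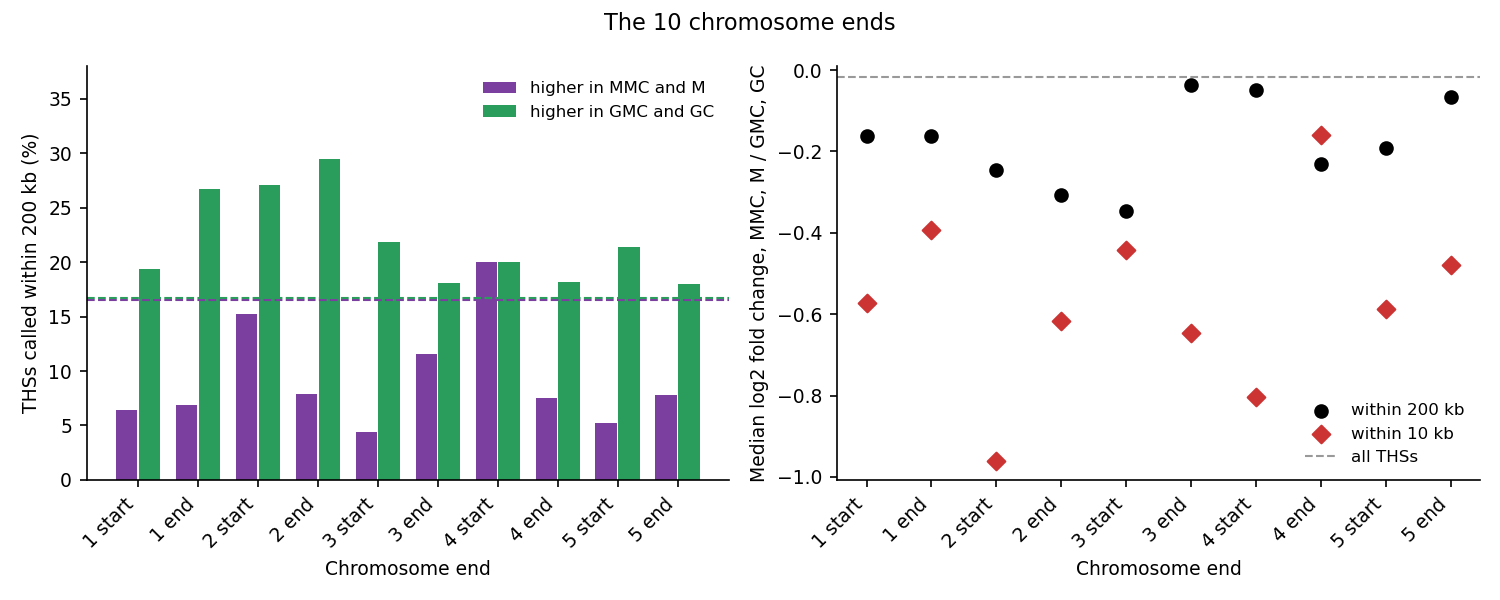
Left, share (%) of the THSs of each chromosome end called higher in MMC and M or in GMC and GC; dashed lines, which nearly coincide, give the shares over all THSs (16.6% and 16.7%). Right, median log2 fold change of MMC and M over GMC and GC within 200 kb (circles) and within 10 kb (diamonds); the medians are negative at all 10 ends, and the end of chromosome 4 is the one where the diamond lies above the circle.

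On chromosome 1, the outermost THS at the start, THS_00001 (chr1:482-631, intergenic), was weak, with 15.3 to 19.9 for Proto, 10.9 to 27.6 for MMC and 7.05 to 34.6 for M, then 22.2 to 38.2 for GMC and 16.1 to 23.4 for GC. The MMC and M ranges overlap those of GMC and GC, and its log2 fold change was -0.54 ± 0.31 (SE), limma adjusted p = 0.17. The outermost at the end, THS_17801 (chr1:30427259-30427431), in the non-coding RNA gene AT1G81020, had 35.8 to 53.6 for Proto, 21.8 to 40.3 for MMC and 21.1 to 48.97 for M, then 45.5 to 52.5 for GMC and 36.3 to 63.7 for GC, with a log2 fold change of -0.81 ± 0.22 (SE), limma adjusted p = 0.011. The strongest THS at the start, THS_00171 (chr1:173183-173703), lay 495 bp upstream of LEA14, a late embryogenesis abundant protein gene, and ran from 275.6 to 758 over all libraries with a log2 fold change of 0.37 ± 0.22 (SE), limma adjusted p = 0.19. The strongest at the end, THS_17716 (chr1:30310547-30311214), lay 214 bp upstream of AT1G80630. It had 374, 425 and 688 for MMC and 278, 594, 478 and 556 for M, then 240.0, 286 and 284 for GMC and 262, 323 and 345 for GC, and a log2 fold change of 0.70 ± 0.20 (SE), limma adjusted p = 0.014. Of the MMC and M libraries only M replicate 1 fell into the GMC range. The THSs of the start of chromosome 1 together took 0.222% of the scaled cutcounts in Proto, 0.236% for MMC and 0.224% for M, then 0.243% for GMC and 0.23% for GC, and those of the end 0.146%, 0.148%, 0.146%, 0.161% and 0.151%.

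On chromosome 2, the 106 THSs at the start outside the ribosomal DNA block took 0.163% of the scaled cutcounts in Proto, 0.173% for MMC and 0.167% for M, then 0.171% for GMC and 0.168% for GC, so the rise in GMC and GC at this end lay in the block. The end without THS_28150 took 0.132%, 0.139%, 0.132%, 0.154% and 0.145%. On chromosome 3, the outermost THS at the start, THS_28151 (chr3:242-491, intergenic), had 27.5, 28.4 and 31.9 for Proto, 35.03, 35.4 and 32.7 for MMC and 29.8, 29.8, 40.9 and 28.7 for M, then 51.7, 59.1 and 40.7 for GMC and 53.4, 43.3 and 46.8 for GC. The GMC and GC libraries lay above all others except M replicate 3, which exceeded GMC replicate 3 by a narrow margin, and the log2 fold change was -0.54 ± 0.18 (SE), limma adjusted p = 0.025. At the end, THS_40495 (chr3:23458270-23458751) lay in an untranslated exon of BB (BIG BROTHER), which encodes an E3 ubiquitin ligase that limits organ size. It had 85.6 to 141 for Proto, 130.2 to 210.1 for MMC and 126 to 172 for M, then 107 to 154 for GMC and 124 to 177 for GC, and its log2 fold change was 0.22 ± 0.17 (SE), limma adjusted p = 0.30. The strongest THSs were THS_28289 (chr3:184693-185211), 549 bp upstream of the homeodomain-leucine zipper gene HB-1, and THS_40351 (chr3:23276339-23276926), at the start of the auxin receptor gene TIR1. THS_40351 had 322, 476 and 567 for Proto, 543, 712 and 859 for MMC and 379, 754, 678 and 708 for M, then 325, 447 and 417 for GMC and 400.1, 419.9 and 548 for GC, and a log2 fold change of 0.62 ± 0.20 (SE), limma adjusted p = 0.023. THS_28289 had a log2 fold change of 0.68 ± 0.21 (SE), limma adjusted p = 0.017. In THS_40351 M replicate 1 and MMC replicate 1 lay in the range of the GMC and GC libraries, and in THS_28289 M replicate 1 lay below all of them.

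On chromosome 4, the outermost THS at the start, THS_40496 (chr4:2894-3138), lay in a coding exon of BRCA2(IV), a gene of homologous DNA repair. It had 47.9, 84.3 and 59.9 for Proto, 39.5, 61.01 and 9.34 for MMC and 55.7, 43.1, 36.8 and 13.8 for M, then 65.2, 69.8 and 71.3 for GMC and 83.4, 63.2 and 69.8 for GC. MMC replicate 3 and M replicate 4 were lowest by far, and the log2 fold change was -1.16 ± 0.36 (SE), limma adjusted p = 0.025. The strongest THS there, THS_40599 (chr4:161728-162295), lay in a coding exon of CYP86A2, a cytochrome P450 of cutin synthesis. It had 292 to 607 for Proto, 454 to 778 for MMC and 386 to 811 for M, then 372 to 501 for GMC and 468 to 506 for GC, with a log2 fold change of 0.30 ± 0.21 (SE), limma adjusted p = 0.26. At the end, THS_50020 (chr4:18471885-18472631) was the strongest, 210 bp upstream of MIPS1, which makes inositol phosphate. It had 308 to 528 for Proto, 463 to 714 for MMC and 307 to 588 for M, then 310.2 to 392 for GMC and 331 to 467 for GC and a log2 fold change of 0.47 ± 0.20 (SE), limma adjusted p = 0.066. On chromosome 5, THS_50270 (chr5:141191-141944), nearest to AT5G00750, was the strongest at the start, with 290.3 to 470.5 for Proto, 405 to 680.1 for MMC and 347 to 563 for M, then 316 to 341 for GMC and 333 to 453 for GC and a log2 fold change of 0.50 ± 0.19 (SE), limma adjusted p = 0.044, or -0.09 under cyclic loess. The strongest at the end, THS_65206 (chr5:26842162-26843533), overlapped a coding exon of the receptor kinase gene RLK and lay 744 bp upstream of EB1C, whose protein tracks the growing ends of microtubules. It had 404, 677 and 626 for Proto, 679, 767 and 1080 for MMC and 516, 850.5, 785 and 740.0 for M, then 533, 534 and 544 for GMC and 615, 623 and 661 for GC. Its mean was highest in MMC, and its log2 fold change was 0.39 ± 0.19 (SE), limma adjusted p = 0.11.

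The THSs with the largest differences and no overlap between the libraries were named in each direction. Highest in MMC and M was THS_40589 (chr4:145322-145511), in an intron of CRCK2, a calmodulin-binding receptor-like kinase gene, 145416 bp from the start of chromosome 4. Its sequence, shown because it had the largest difference in this direction, carries none of the words searched.
THS_40589, chr4:145322-145511: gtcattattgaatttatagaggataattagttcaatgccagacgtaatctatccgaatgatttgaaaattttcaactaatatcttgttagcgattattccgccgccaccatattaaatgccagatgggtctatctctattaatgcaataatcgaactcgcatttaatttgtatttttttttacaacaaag
It had 50.9, 36.8 and 46.2 scaled cutcounts in Proto, 96.99, 47.2 and 101 for MMC and 64.3, 93.2, 55.2 and 160.1 for M, then 46.8, 45.97 and 35.6 for GMC and 29.04, 33.9 and 36.05 for GC. Every MMC and M library lay above every GMC and GC library, though MMC replicate 2 did so barely, and Proto overlapped GMC. The log2 fold change was 1.10 ± 0.22 (SE), limma adjusted p = 0.0046. On the same chromosome arm THS_40586 (chr4:133440-133691), 77 bp upstream of EDA8, had 47.9, 66.7 and 50.8 for Proto, 101, 81.7 and 132 for MMC and 87.4, 114, 108 and 136 for M, then 46.8, 59.9 and 55 for GMC and 74.02, 59.6 and 65.96 for GC, and a log2 fold change of 0.83 ± 0.16 (SE), limma adjusted p = 0.0046. Proto was again as low as GMC and GC.

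The other 4 in this direction were smaller. THS_49962 (chr4:18399462-18399631), 160 bp upstream of AT4G39630, had a log2 fold change of 0.81 ± 0.22 (SE), limma adjusted p = 0.012, and its libraries ran from 18.4 to 35.7 for Proto, 31.4 to 48.2 for MMC and 25.9 to 51.1 for M, then 18.3 to 22.2 for GMC and 19.7 to 23.4 for GC. THS_65199 (chr5:26833842-26834071), 54 bp upstream of the F-box gene SKIP2, ran from 26.7 to 44.8 for Proto, 44.3 to 65.6 for MMC and 46.2 to 71.5 for M, then 19.7 to 38.6 for GMC and 29.04 to 39.8 for GC and had a log2 fold change of 0.75 ± 0.20 (SE), limma adjusted p = 0.011. THS_50008 (chr4:18460882-18461051), 1710 bp upstream of AT4G39780, and THS_28123 (chr2:19650006-19650311), in an untranslated exon of AT2G48030, had log2 fold changes of 0.65 ± 0.18 (SE), limma adjusted p = 0.013, and 0.63 ± 0.17 (SE), limma adjusted p = 0.011. In THS_50008 the MMC mean rested on replicate 3, with 96.5 against 50.3 and 53.1 in the others. Of the 6 THSs, 4 lay on chromosome 4, at its start or at its end.

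Higher in GMC and GC were, first, the repeated THSs whose sequences are given above. THS_17814 (chr2:16748-16904) had 51.9, 37.5 and 41.6 for Proto, 28.7, 58.1 and 1.56 for MMC and 46.1, 24.3, 16.3 and 9.39 for M, then 80.01, 87.8 and 80.5 for GMC and 85.3, 85.4 and 60.6 for GC. Its log2 fold change was -2.09 ± 0.57 (SE), limma adjusted p = 0.017, with the lowest values in MMC replicate 3 and M replicate 4. The 1.56 in MMC replicate 3 is the scaled value of 1 cutcount in that library. THS_17815 (chr2:23181-23350) had 73.3, 55.2 and 48.2, 26.04, 57.1 and 6.22, 63.4, 38.4, 40.9 and 18.8, 143, 96.05 and 107 and 101, 87.7 and 76.7 in the same order, and a log2 fold change of -1.79 ± 0.37 (SE), limma adjusted p = 0.0068. All their 35-base words occur elsewhere too, so their values can include reads from several places and need not hold all of those reads.

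Further THSs higher in GMC and GC had unique sequence. THS_65184 (chr5:26815222-26815371), in a coding exon of the receptor-like kinase gene AT5G67200, had 24.4, 29.9 and 26.7 for Proto, 20.7, 33.5 and 20.2 for MMC and 28.8, 10.2, 6.13 and 13.3 for M, then 51.7, 40.2 and 42.8 for GMC and 58.1, 51.5 and 39.9 for GC. The log2 fold change was -1.38 ± 0.26 (SE), limma adjusted p = 0.0044. No GMC or GC library was as low as any MMC or M library. THS_28110 (chr2:19637042-19637191), 283 bp upstream of AT2G09975, and THS_50184 (chr5:40342-40491), 287 bp upstream of AT5G00735, were low throughout, with state means from 16.01 to 42.1 and from 12.3 to 29.6. Their log2 fold changes were -1.24 ± 0.26 (SE), limma adjusted p = 0.0051, and -1.20 ± 0.29 (SE), limma adjusted p = 0.0074. Without MMC replicate 3 and M replicate 4, 5 of the 20 named THSs called towards MMC and M and 16 of the 27 called towards GMC and GC kept their call. Over all THSs the shares called in these directions fell from 16.6% and 16.7% to 4.16% and 5.98%. The log2 fold change was then 0.86 in THS_40589, 0.69 in THS_40586, -1.24 in THS_17814, -1.22 in THS_17815 and -1.33 in THS_65184, and each of these kept its call.

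**Figure D5:**
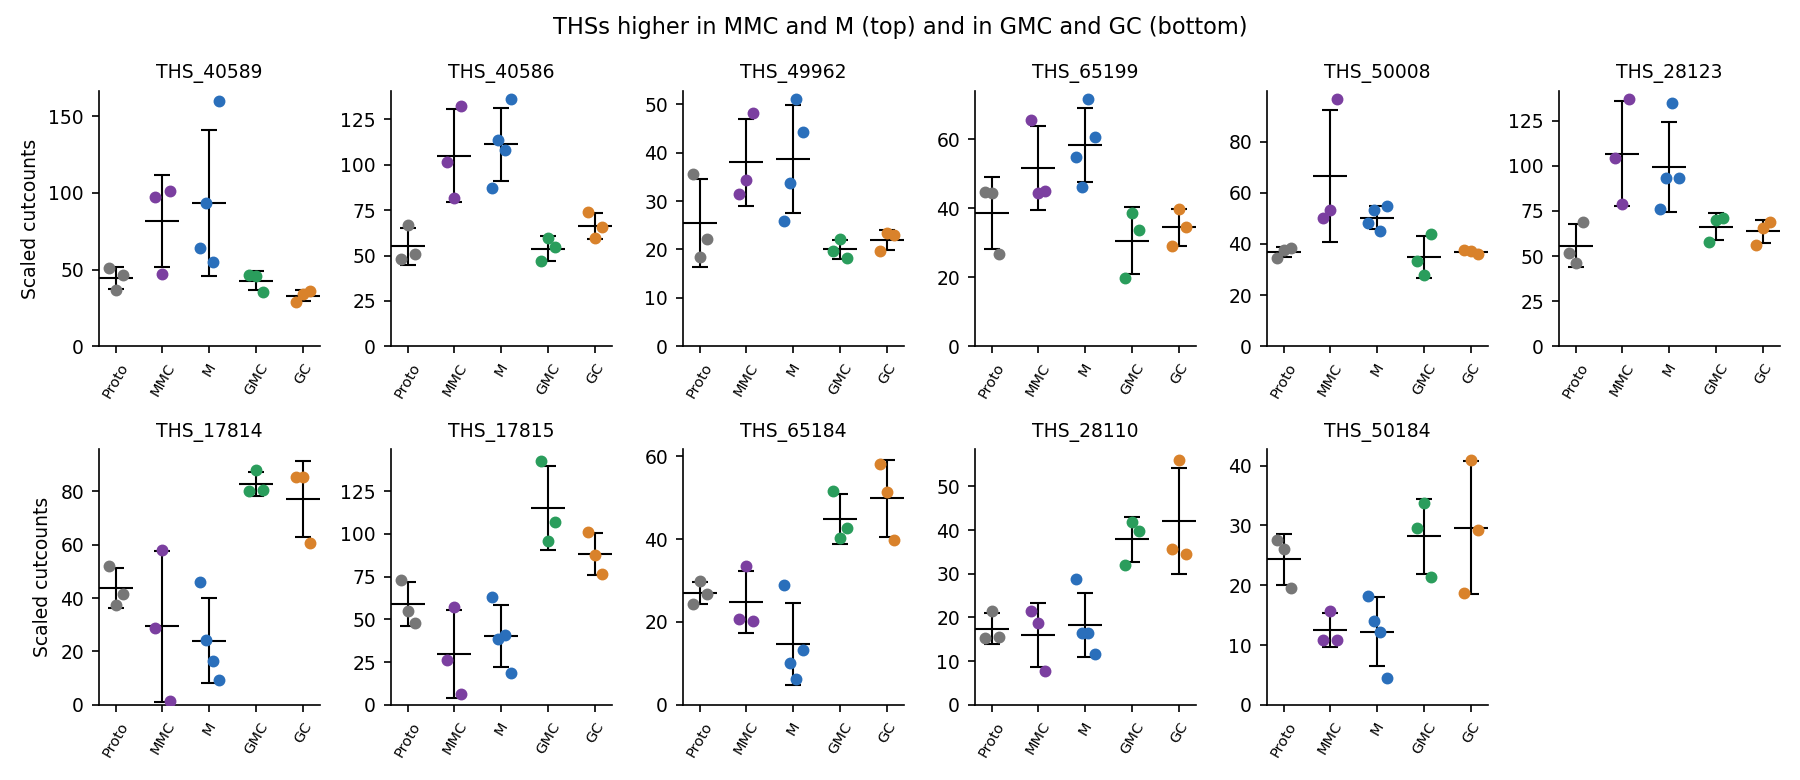
Scaled cutcounts (from 0) of the 6 THSs with the largest log2 fold change towards MMC and M (top) and 5 towards GMC and GC (bottom) among those whose libraries do not overlap. Points are libraries and bars the mean ± SD. In THS_40589 the MMC and M libraries lie above the 6 GMC and GC libraries, and in THS_17814 they lie below them.

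Direction went with the kind of site. Of the 299 THSs in coding exons, 167 (55.9%) were higher in GMC and GC and 2 (0.669%) in MMC and M, against 51.7% and 2.75% of all THSs in coding exons. Of the 433 upstream THSs, 67 (15.5%) favoured MMC and M and 32 (7.39%) in GMC and GC, against 28.4% and 5.86% of all upstream THSs. The 7 in pseudogenes were all higher in GMC and GC, against 76.6% of all THSs in pseudogenes. The THSs higher in MMC and M were strong and long, with a median level of 152 and a median length of 349 bp, and those higher in GMC and GC weak and short, with a median level of 42.0 and a median length of 174 bp. Level and direction were tied in the whole table as well. Above a level of 200 scaled cutcounts, 40.6% of the 128 end THSs favoured MMC and M and 8.59% favoured GMC and GC, against 59.97% and 1.40% of all THSs. Between 30 and 50, 1.43% and 30% of 490 were called, against 3.10% and 27.0% of all THSs. At each of the 5 level ranges the end THSs had fewer calls towards MMC and M and more towards GMC and GC than all THSs of that range. The range above 200 holds the 12 ribosomal DNA THSs, and 9 of these were called towards GMC and GC. The shares of that range without this block were not computed. Of the 60 THSs with a telobox, 5 (8.33%) were higher in MMC and M and 15 (25%) in GMC and GC, against 30.3% and 8.24% of all THSs with this word. Without MMC replicate 3 and M replicate 4, 20.1% of the coding exon THSs were higher in GMC and GC, against 19.8% of all coding exon THSs, and 3.46% of the upstream ones were higher in MMC and M, against 7.49%. Above a level of 200 the shares were then 8.59% and 0.781%, against 15% and 0.635%, and with a telobox 0 and 5 THSs were called, against 6.97% and 2.72% of all with the word.

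Between single states, M against GMC gave calls. Of the 1610 THSs 102 (6.34%) were higher in GMC and 40 (2.48%) higher in M, against 4.79% and 5.87% of all THSs. This contrast shares the M and GMC libraries with the comparison above. The 3 with the smallest p were all higher in GMC. THS_65184, described above, had a log2 fold change of GMC over M of 1.75 ± 0.36 (SE), limma adjusted p = 0.028. THS_40349 (chr3:23273562-23273711), in a coding exon of TIR1, had 35.7, 26.1 and 44.3 for Proto, 27.8, 38.4 and 28.01 for MMC and 22.1, 31.3, 8.17 and 16.01 for M, then 52.9, 60.7 and 57.04 for GMC and 61.8, 39.8 and 46.02 for GC, and a log2 fold change of 1.65 ± 0.33 (SE), limma adjusted p = 0.028. For THS_40351, at the start of the same gene, the log2 fold change of GMC over M was -0.63 ± 0.28 (SE), limma adjusted p = 0.11. THS_00102 (chr1:102722-103031), an intergenic site nearest to AT1G01250, had 46.9, 56.7 and 46.2 for Proto, 43.1, 54.1 and 43.6 for MMC and 49.9, 30.5, 26.6 and 29.3 for M, then 81.2, 82.9 and 68.2 for GMC and 60.9, 53.8 and 46.8 for GC, so all 3 GMC libraries were above every other library. Its log2 fold change was 1.20 ± 0.24 (SE), limma adjusted p = 0.028. The calls depended on the fit. With the replicate number as a block 9 (0.559%, against 0.615%) were called in either direction, the second share being that of all THSs, and 0 without trend and robust or with the fraction of reads in peaks as a covariate, against 0.00765% each. Without both MMC replicate 3 and M replicate 4 the count was 115 (7.14%, against 8.45%). It was 550 (34.2%, against 38.6%) without M replicate 1, 340 (21.1%, against 23.9%) without MMC replicate 3 and 241 (14.97%, against 17.1%) without MMC replicate 2. It was 74 to 92 (4.60% to 5.71%, against 5.73% to 6.85%) without any 1 of the Proto or GC libraries. It was 1 (0.0621%, against 0.0107%) without M replicate 2. It was 0 without any 1 of the 3 GMC libraries or M replicates 3 or 4, against 0.00612% to 0.00918%.

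No THS of the ends passed an adjusted p of 0.05 (limma) for Proto against MMC, MMC against M or GMC against GC, against 0.00765%, 0.00459% and 0.00765% of all THSs. At an unadjusted p under 0.05 there were 145, 39 and 18, against 7.37%, 2.58% and 1.89% of all THSs. In the test of any difference between the 5 states 0 passed, against 0.0275% of the whole table. An unadjusted p under 0.05 was reached by 379 (23.5%), against 24.9% of the whole table. Several of these counts depend on single libraries, as they do over all THSs. The test of 5 states called 375 (23.3%, against 26.4%) without M replicate 1, 227 (14.1%, against 14.4%) without MMC replicate 2, 86 (5.34%, against 5.498%) without MMC replicate 3 and 1 (0.0621%, against 0.0306%) without M replicate 4, and 32 (1.99%, against 1.63%) without both MMC replicate 3 and M replicate 4, where the second share is that of all THSs. For Proto against MMC, 11 (0.683%, against 1.07%) passed without MMC replicate 2.

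Genes near the ends were grouped by role. A list of 22 transcription factor genes had a THS for 20, of which 5 were higher in MMC and M and 4 in GMC and GC. THS_40533 (chr4:56847-57227), 2458 bp downstream of the start of SCL6 (also named HAM3), a GRAS factor of meristem maintenance, had 233, 149.6 and 338 for MMC and 143, 279.6, 243 and 364 for M against 106, 109 and 144 for GMC and 147, 134 and 126 for GC, and a log2 fold change of 0.89 ± 0.20 (SE), limma adjusted p = 0.0059. M replicate 1 lay in the GMC range. The median level of this list was 179, and over all THSs between 100 and 200, 36.4% and 5.37% were called in these directions. The others higher in MMC and M were near LHY, MYB106, HB-1 and MYB44. In the other direction were THS_40524 in the coding exon of IND, a bHLH gene of fruit opening (log2 fold change -1.08 ± 0.30 (SE), limma adjusted p = 0.014), THS_40552 upstream of YAB3, a gene of leaf polarity (log2 fold change -0.97 ± 0.21 (SE), limma adjusted p = 0.0052), and THS_17730, 1228 bp downstream of the start of the zinc finger gene ZFP1 (log2 fold change -0.78 ± 0.19 (SE), limma adjusted p = 0.0072). The remaining one was near NAC001. THS_40552 is nearer to AT4G03525 than to YAB3, and 48.5% of its 35-base words are repeated. In THS_17730 all 3 GMC libraries, 105, 105 and 109, were above all other libraries.

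Of 8 hormone genes with a THS, 4 were higher in MMC and M and 0 in GMC and GC, and the median log2 fold change was 0.47. They were TIR1, described above, the auxin efflux gene PIN4 (THS_17903, log2 fold change 0.61 ± 0.19 (SE), limma adjusted p = 0.019), the gibberellin receptor gene GID1B (THS_40367, log2 fold change 0.50 ± 0.19 (SE), limma adjusted p = 0.041) and the carotenoid cleavage gene CCD1 (THS_40488, log2 fold change 0.52 ± 0.20 (SE), limma adjusted p = 0.047), whose THS is nearer to AT3G63510. The median level of these THSs was 274, and over all THSs above 200 the shares higher in MMC and M and in GMC and GC were 59.97% and 1.40%, with a median log2 fold change of 0.54. The THS of PIN4 had 440.1, 443 and 643 for MMC and 322, 569, 317 and 623 for M, then 261, 305 and 267 for GMC and 333, 322 and 353 for GC, with M replicate 1 in the range of GC and M replicate 3 between GMC and GC.

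Of 7 genes of cell division and growth, which share 6 THSs, 1 THS was higher in MMC and M. It was THS_65198 (chr5:26833301-26833751), in an untranslated exon of SKIP2 and upstream of the D-type cyclin gene CYCD3;2, with a log2 fold change of 0.58 ± 0.18 (SE), limma adjusted p = 0.017. It had 118, 176 and 203 for Proto, 219, 203 and 314 for MMC and 195, 211, 339 and 232 for M, then 135, 169.9 and 153 for GMC and 179, 158 and 167 for GC, so that every MMC and M library was above every GMC and GC library. The median of the list was 0.23. Of 5 genes of chromatin and RNA, 3 had a THS higher in MMC and M and 0 in GMC and GC, with a median level of 284, against the 59.97% and 1.40% given above for all THSs over 200. They were DCL1, which cuts microRNA precursors (THS_00021, log2 fold change 0.59 ± 0.18 (SE), limma adjusted p = 0.018), the histone H3 gene HTR5 (THS_50100, log2 fold change 0.52 ± 0.18 (SE), limma adjusted p = 0.033) and the co-repressor gene TPR1 (THS_17683, log2 fold change 0.48 ± 0.19 (SE), limma adjusted p = 0.049). Under cyclic loess scaling THS_17683 had a log2 fold change of -0.06. CPL2 had a log2 fold change of 0.15 ± 0.17 (SE), limma adjusted p = 0.51. Of 7 plastid and leaf metabolism genes, 2 were higher in each direction. The carbonic anhydrase gene CA1 (THS_28302, log2 fold change 0.55 ± 0.17 (SE), limma adjusted p = 0.019) and the aquaporin gene PIP1;4 (THS_40611, log2 fold change 0.48 ± 0.18 (SE), limma adjusted p = 0.047) were higher in MMC and M, though THS_40611 had -0.08 under cyclic loess. PAC, needed for chloroplast development (THS_28139, log2 fold change -1.18 ± 0.25 (SE), limma adjusted p = 0.0056), and the sulfolipid gene SQD2 (THS_50233, log2 fold change -0.45 ± 0.17 (SE), limma adjusted p = 0.048) were higher in GMC and GC. The THS of CA1 lies nearer to AT3G01490, and that of SQD2 in an untranslated exon of AT5G01230. THS_28139 had 37.7, 63.96 and 20.2 for MMC and 62.4, 57.2, 26.6 and 22.1 for M against 101, 110.0 and 75.4 for GMC and 86.2, 81.9 and 69.03 for GC, with no overlap. The 2 THSs chosen for the 18S and 5.8S ribosomal RNA genes, THS_17804 and THS_17809, were both higher in GMC and GC. In all, 47 THSs stood for 49 of the 54 genes, and 15 were higher in MMC and M and 8 in GMC and GC, with a median log2 fold change of 0.24. The lists took the strongest THS of each gene, with a median level of 182, above the 47.96 over the 1610, and over all THSs between 100 and 200 the shares called were 36.4% and 5.37%. Without MMC replicate 3 and M replicate 4, 1 of the 47 was higher in MMC and M and 4 in GMC and GC. Over all THSs between 100 and 200 the shares were then 9.37% and 2.87%. Of the hormone and the chromatin and RNA genes 0 kept a call, and over all THSs above 200 the shares were then 15% and 0.635%.

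At the limit itself, the THSs just inside lay between 192637 and 199913 bp from their end, and those just outside between 200016 and 205443 bp, and the levels just inside ran from 18.4 to 204 scaled cutcounts and those just outside from 11.5 to 114. Intervals on shares cover counting error only. All 1610 THSs entered the fit, since no filter on low values was used, and 7 of them had a value of 0 in some library.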

How the data were processed

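The authors placed the ATAC-seq reads on TAIR10 (bowtie2), left out reads in centromeres, counted transposition events per THS and divided them by a DESeq2 size factor per library, and the deposited signal is this scaled cutcount. The submitters' processing notes also name bcl2fastq, MACS2 and bedtools. Depth was the number of cutcounts on THSs per library, and it sets the precision of weak THSs. 1 value column that matched no library was not used. The scaled cutcounts were tested as log2(value + 1) with limma 3.58.1 (5 state means, 16 libraries, trend and robust, checked on simulated data), with Benjamini-Hochberg adjustment over 65351 THSs and no filter, and fold changes of low THSs are understated on this scale. Genes, places and sequences came from the RefSeq copy of TAIR10.

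THSs named were the outermost and the strongest at each end, the 6 in each direction with the largest difference and no overlap between libraries (1 towards GMC and GC is not reported here), the 3 with the smallest p in other contrasts, and the strongest THS of listed genes, with values for those with the largest difference. The remaining ribosomal DNA THSs and the shared sequences were chosen after their values were seen. The chromosome ends and gene lists were chosen with earlier results of these data known. Alternatives were other scalings, pseudocounts, filters, covariates, windows, thresholds, a replicate block and leaving out libraries. The libraries of equal replicate number did not deviate together as a rule, so they were not treated as pairs.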

Additional observations from a re-analysis of the deposited data

Results flagged for a closer look

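In 6 of 64 sets of 4 M libraries, 1 library lay further from the nearest other than Dixon's 95% critical value for 4 samples allows, and chance gives about 1 in 20. M replicate 1 was highest in THS_00102 (49.9 scaled cutcounts, the others 26.6 to 30.5), and it was lowest in THS_28289 near HB-1 (193, the others 479 to 499.8), in THS_50020 near MIPS1 (307, the others 556 to 588) and in THS_50270 (347, the others 535 to 563). M replicate 3 was highest in THS_28151, the outermost THS of the start of chromosome 3 (40.9, the others 28.7 to 29.8). M replicate 4 had the smallest share of scaled cutcounts on the end THSs other than the ribosomal DNA and the telomere repeat (1.63%, the others 1.84% to 1.85%).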

How the results depend on the processing

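The counts higher in MMC and M and higher in GMC and GC were 92 and 425 with equal totals, 57 and 173 with cyclic loess, 0 and 0 with the share on the top 1% of THSs as covariate, 0 and 0 with the fraction of reads in peaks as covariate, whose listed values went against the depth of M replicates 1 to 3 and GMC replicate 2, 19 and 85 at a threshold of 0.01, 53 and 203 within 100 kb, and 26 and 125 without MMC replicate 3 and M replicate 4. Of all THSs, 11.8% and 20.4% were called with equal totals, 7.25% and 8.76% with cyclic loess, and 4.16% and 5.98% without both libraries. With the covariates, in the order given, the shares were 0.0107% and 0.00612%, then 0.0107% and 0.00459%. At 0.01, 4692 of all 65351 were called in both directions together. The 100 kb window held 811 THSs, beside 16.6% and 16.7% of all THSs. Leaving out 1 library gave 42 to 241 and 185 to 500, against 7.27% to 24.96% and 8.91% to 23.4% of all THSs. The test of any difference gave 4 (0.248%, against 0.305% of all THSs) with a pseudocount of 5. It gave 123 (7.64%, against 7.60%) and 2 (0.124%, against 0.0306%) with the covariates. Without both libraries it gave 32 (1.99%, against 1.63%), and without 1 library 0 to 375, against 0.0184% to 26.4%. Proto against MMC gave 19 (1.18%, against 0.987% of all THSs) and 1 (0.0621%, against 0.0138%) with the covariates. It gave 1 (0.0621%, against 0.0153%) without both libraries and 0 to 11 without 1, against 0.00459% to 1.07%. M against GMC gave 48 (2.98%, against 3.62% of all THSs) with cyclic loess. It gave 0 without trend and robust and 0 with the fraction of reads in peaks, against 0.00765% each. At 0.01 it gave 0, where 5 of all THSs passed. Within 100 kb it gave 77, beside 10.7% of all THSs. Without 1 library it gave 0 to 550, against 0.00612% to 38.6%. GMC against GC gave 1 (0.0621%, against 0.116% of all THSs) from those states alone and 1 (0.0621%, against 0.0107%) with the top 1% share. The cause was not tested.

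With a replicate block the counts for MMC and M against GMC and GC were 155 (9.63%, against 14.6% of all THSs) and 269 (16.7%, against 13.7%). They were 64 (3.98%, against 4.68%) for any difference, 1 (0.0621%, against 0.0153%) for Proto against MMC and 9 (0.559%, against 0.615%) for M against GMC. Of 30 same-numbered pairs, 9 correlated above 0.1 (r from -0.222 to 0.402).

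The share of scaled cutcounts on the end THSs was 3.26% for Proto, 4.40% for MMC and 4.58% for M, then 7.95% for GMC and 6.87% for GC within 100 kb, 5.06% for Proto, 6.35% for MMC and 6.47% for M, then 9.83% for GMC and 8.68% for GC within 300 kb, 1.75% for Proto, 1.88% for MMC and 1.82% for M, then 1.94% for GMC and 1.83% for GC without repeated THSs, and 2.51% for Proto, 2.99% for MMC and 3.10% for M, then 4.22% for GMC and 3.83% for GC without the 10 highest THSs of the table. Leaving out 1 library gave 4.13% to 4.21% for Proto, 4.34% to 6.57% for MMC, 4.61% to 6.35% for M, 8.91% to 8.98% for GMC, 7.58% to 8.20% for GC.

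Some log2 fold changes changed sign. With the top 1% share as covariate they were 0.069 (THS_00001), 0.15 (THS_17803), 0.12 (THS_28150), 0.068 (THS_50136) and 0.0052 for the median at 150 to 200 kb. With the fraction of reads in peaks they were 0.16 (THS_17803), 0.20 (THS_28150) and 0.12 (THS_50136), and with libraries left out THS_50136 ranged from -0.29 to 0.011 (without both MMC replicate 3 and M replicate 4). With cyclic loess they were -0.24 (THS_00171), -0.16 (THS_00194), -0.060 (THS_17683), -0.12 (THS_40495), -0.31 (THS_40599), -0.082 (THS_40611), -0.12 (THS_50020), -0.11 (THS_50253), -0.089 (THS_50270) and -0.27 (THS_65206). Of the 60 named THSs 47 were called, and all 47 lost their call under each covariate. Under these, 0.0168% of all THSs were called with the top 1% share and 0.0153% with the fraction of reads in peaks. Depth limits weak THSs, and M replicate 3 was the shallowest library.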
